A study of Mus musculus with 4 samples.

Results

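Divergent promoters lie between a pair of protein-coding genes that start close together and are read away from each other, so that both genes share 1 stretch of regulatory DNA. A total of 734 such pairs was found on the 19 autosomes by the annotation alone (GENCODE M21, build mm10): the genes lay on opposite strands, head to head, and their transcription start sites (TSSs) were at most 1000 bp apart. The 734 pairs held 1448 of 20807 autosomal protein-coding genes (6.96%). They formed 714 loci, because 20 genes belonged to more than 1 pair. A gene's TSS was its annotated 5′ end, and no measured value entered the choice.

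Trimethylation of histone H3 at lysine 4 (H3K4me3) had been mapped in gastrocnemius, the large calf muscle, by chromatin immunoprecipitation and sequencing of frozen tissue. The mice were adult B6CASTF1/J females of 2 months, untreated as far as the labels say, and B6CASTF1/J is a first-generation hybrid of C57BL/6J and CAST/EiJ. The 4 libraries, with fragments of 200 to 600 bp, came from 2 pools, E and F, each made of 2 biosamples and sequenced as 2 technical libraries. Each pool had 1 peak list, both pools together had a replicated and a pooled list, and no list held a value per library, so the pools are the only replicates. The labels give both pools the same donor identifier, and whether they came from different animals is not stated. Gastrocnemius holds muscle fibres together with vessel, connective tissue and immune cells, and the lists cannot tell which cells carried a mark.

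H3K4me3 is placed on the nucleosomes that follow an active start site and is the standard mark of promoters, most of all of those in CpG islands. At a divergent promoter the polymerase leaves in both directions from 1 nucleosome-depleted stretch, and coding transcripts are made on either side. Such promoters are known to be rich in CpG, to lack a TATA box as a rule, and to serve many genes of DNA repair, metabolism and other functions that most cells need.

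The DNA between the 2 TSSs is shown for 5 textbook pairs short enough to print, for the pair with the highest signal value (Dido1/Gid8) and, added after the values had been seen, for 1 unmarked pair (Dgcr2/Tssk2). The letters are the forward strand of GRCm38.p6 (the mm10 build), 5′ to 3′, from the base after the left TSS to the base before the right TSS. Capitals mark each CpG, the dinucleotide that CpG islands keep. No annotated exon or gene overlapped any of the 7 stretches.
Col4a4/Col4a3, chr1:82586850-82586920: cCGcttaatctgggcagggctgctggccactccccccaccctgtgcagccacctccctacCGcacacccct
Brca1/Nbr1, chr11:101551956-101552148: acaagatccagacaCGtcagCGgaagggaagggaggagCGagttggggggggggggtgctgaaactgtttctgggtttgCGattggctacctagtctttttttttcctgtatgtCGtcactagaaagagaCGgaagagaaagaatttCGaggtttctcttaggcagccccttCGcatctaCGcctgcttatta
Psmb1/Tbp, chr17:15499752-15499887: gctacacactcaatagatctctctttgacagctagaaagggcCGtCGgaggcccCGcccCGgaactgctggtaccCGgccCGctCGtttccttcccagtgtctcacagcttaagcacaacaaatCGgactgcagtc
Mrps12/Sars2, chr7:28741821-28741991: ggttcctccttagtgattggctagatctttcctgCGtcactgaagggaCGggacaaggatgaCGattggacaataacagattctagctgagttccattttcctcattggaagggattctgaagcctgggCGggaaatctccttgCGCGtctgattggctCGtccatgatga
Recql4/Lrrc14, chr15:76710549-76710622: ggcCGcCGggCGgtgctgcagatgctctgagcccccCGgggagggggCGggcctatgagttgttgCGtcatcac
Dido1/Gid8, chr2:180710000-180710116: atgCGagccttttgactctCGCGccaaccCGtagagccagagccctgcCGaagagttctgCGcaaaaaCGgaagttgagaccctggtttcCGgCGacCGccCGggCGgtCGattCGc
Dgcr2/Tssk2, chr16:17898563-17898636: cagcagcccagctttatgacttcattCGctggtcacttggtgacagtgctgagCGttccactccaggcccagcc
The stretch between Dido1 and Gid8 was 117 bp long and held 14 CpGs (12.0 per 100 bp), and the 74 bp between Recql4 and Lrrc14 held 6 (8.11 per 100 bp). By contrast the 71 bp between Col4a4 and Col4a3 held 2 (2.82 per 100 bp) at a GC content of 69.0%, and the 74 bp of the unmarked pair Dgcr2/Tssk2 also held 2 (2.70 per 100 bp).

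The tissue label was set beside marker genes first. All 12 skeletal muscle markers had a peak within 1000 bp of their 5′ end in the replicated list. Among them were the desmin gene Des (signal value 50.8) and the fast-fibre gene Actn3 (57.7), whose peak also covered the TSS of its neighbour Zdhhc24. The lowest muscle value was 3.65, at Mb. Ckm was counted by a peak of 38.2 that covers the TSS of its neighbour Klc3 and ends 232 bp before the Ckm 5′ end. Each of 3 endothelial and 3 fibroblast markers was marked as well, with Pecam1 lowest at 3.93. Of 2 macrophage markers 1 was marked, Cd163 at 3.93. None of 3 lymphocyte and 4 hepatocyte markers was. Of all autosomal coding genes 66.5% had a peak within 1000 bp of their 5′ end, and these small counts were not tested against that share. The signal value is the authors' own number for a peak, of unstated scale, and classes and pairs are ranked by it only within a list. Where values of both pools are given, a difference between them is not read as one between the tissues. The replicated list held 41955 peaks (median signal value 7.64), that of pool E 42418 (8.77) and that of pool F 39544 (8.07). The lists hold no read counts, so their depth is unknown.

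Nearly every divergent pair was marked, that is, had a peak within 1000 bp of either TSS. In the replicated list 713 of 734 pairs were marked (97.1%, 95% Wilson interval 95.7 to 98.1%, which covers counting error only), against 66.5% of all autosomal coding genes at their 5′ end. Pool E gave 713 pairs (background 66.4%) and pool F 713 pairs (background 66.0%), and they were the same 713 pairs in all 3 lists. No pair was marked in 1 pool alone. Every marked pair had a peak within 1000 bp of each of its TSSs. The TSSs lie so close that a peak near 1 is usually near both, so this does not show that each gene was marked. Single-gene promoters were 17464 coding genes outside pairs with no TSS of another coding gene within 2000 bp, and 61.9% of them were marked in the replicated list, 61.9% in pool E and 61.4% in pool F. The 436 head-to-head pairs whose 5′ ends overlapped by up to 1000 bp formed a separate class, of which 425 (97.5%) were marked.

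The gap in marking went together with CpG content. Promoters were put in CpG classes from a 1000 bp window at the TSS or midway between both TSSs: high where the observed CpG number was at least 0.75 of that expected from base content and at least 55% of bases were G or C, low where the ratio was under 0.48. Of the pairs 52.6% were high and 5.72% low, and of the single-gene promoters 23.1% were high and 48.6% low. In the high class 99.2% of pairs and 99.2% of single-gene promoters were marked. In the intermediate class the shares were 99.3% of 306 pairs and 93.7% of 4940 promoters, and in the low class 61.9% of 42 pairs and 25.7% of 8488 promoters. Among genes with 1 annotated start region, a subset chosen after seeing the data, 209 of 223 pairs were marked (93.7%).

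In most pairs 1 peak lay over both start sites. Such a peak was found at 684 of 713 marked pairs (95.9%, 94.2 to 97.2%), at 95.2% in pool E and at 96.1% in pool F. Of the 29 others, 12 had separate peaks over the 2 TSSs, 14 had a peak over 1 TSS only and 3 over neither, and at 17 of the 29 the peaks joined into 1 domain over both TSSs. A domain here means peaks separated by at most 1000 bp. The distance between the TSSs was short, with a median of 128 bp (interquartile range 66.2 to 240.0 bp), and 82.0% of pairs lay within 300 bp. The strongest peak at a marked pair had a median width of 2646 bp, and 93.0% of marked single-gene promoters had a peak over their TSS. A single peak over both TSSs was therefore likely from the start at most pairs.

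Sharing of a peak fell off with distance. A peak must be longer to cover TSSs that lie further apart, so a fall was likely from the start. In the replicated list 100% of 124 marked pairs 1 to 50 bp apart had 1 peak over both TSSs, 97.9% of 194 at 101 to 200 bp, 92.6% of 136 at 201 to 400 bp, 86.4% of 59 at 401 to 700 bp and 80.0% of 25 at 701 to 1000 bp. Beyond the limit of the rule the share was 53.8% of 39 marked pairs at 1001 to 1500 bp, 22.9% of 48 at 1501 to 2000 bp and 10.6% of 66 at 2001 to 3000 bp. At 701 to 1000 bp both pools gave 80.0%, and at 1001 to 1500 bp pool E gave 51.3% and pool F 48.7%. Just inside the limit, Btf3l4/Txndc12 at 987 bp had a signal value of 51.8 and a domain of 3717 bp, and just outside it Gpr108/Trip10 at 1009 bp had 44.7 and 6056 bp.

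**Figure D1:**
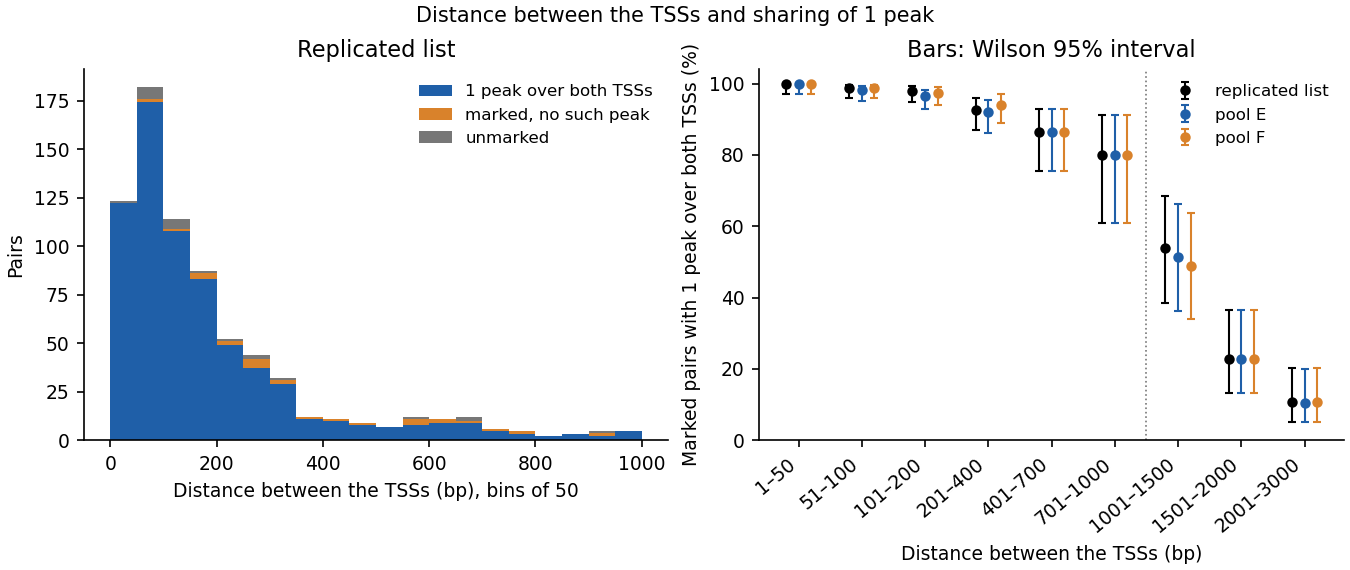
Left: number of pairs by the distance between their TSSs in bp (bins of 50 bp), split into pairs with 1 peak over both TSSs, marked pairs without one, and unmarked pairs, replicated list. Right: percent of marked pairs with 1 peak over both TSSs by distance class, in 3 lists, with 95% Wilson intervals as bars and the 1000 bp limit dotted; the replicated list falls from 100% at 1 to 50 bp to 10.6% at 2001 to 3000 bp.

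The tightly spaced textbook pairs show the shared peak. Psmb1, a proteasome subunit gene, and Tbp, the TATA-binding protein gene, start 137 bp apart on chromosome 17 (15499751 and 15499888). Their signal value was 34.6 in the replicated list, 48.8 in pool E and 32.8 in pool F, and 1 peak spanned both TSSs in each list. That peak ran 3926 bp into Psmb1 and 1415 bp into Tbp in pool E, and 3630 bp and 1362 bp in pool F, so in both pools it lay mostly on the Psmb1 side. Brca1, a gene of homologous recombination, and Nbr1, an autophagy receptor gene, start 194 bp apart on chromosome 11 (101551955 and 101552149). Their peak had a signal value of 34.9 (37.4 in pool E, 32.9 in pool F). It ran 656 bp into Brca1 and 2804 bp into Nbr1 in pool E, and 600 bp and 2747 bp in pool F, again with the same longer side in both pools.

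Mrps12, for a protein of the mitochondrial ribosome, and Sars2, the mitochondrial seryl-tRNA synthetase gene, start 172 bp apart (chromosome 7, 28741820 and 28741992). Their signal value was 52.4, with 56.7 in pool E and 40.7 in pool F, and their domain was 2104 bp wide. Recql4, a helicase gene, and Lrrc14 start 75 bp apart (chromosome 15, 76710548 and 76710623) and had a signal value of 55.9 (60.8 and 52.3) and a domain of 1929 bp. These 2 pairs had higher values than Psmb1/Tbp and Brca1/Nbr1 in the replicated list, and narrower domains.

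Col4a4 and Col4a3 encode chains of basement membrane collagen, and their TSSs are 72 bp apart on chromosome 1 (82586849 and 82586921). This pair was the only textbook pair of the low CpG class, with a ratio of 0.455, and the printed stretch holds 2 CpGs. It had the lowest signal value of the 8 textbook pairs: 27.1 in the replicated list, 30.8 in pool E and 27.4 in pool F. In the lists of the single pools Gart/Son was lower (30.1 in pool E and 27.2 in pool F). Gart, for an enzyme of purine synthesis, and Son, a splicing cofactor gene, lie 554 bp apart and had a signal value of 31.9. Atm, the kinase gene of the DNA damage response, and Npat, a coactivator gene of histone transcription, lie 307 bp apart and had 45.2. Mcm4, of the replicative helicase, and Prkdc, the DNA-dependent protein kinase gene, lie 466 bp apart and had 38.4. Each of the 8 had 1 peak over both TSSs in all 3 lists. Of all marked pairs 95.9% had such a peak in the replicated list, so 8 of 8 is near that share.

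A further 7 textbook pairs fell outside the rule because their annotated 5′ ends overlap. Among them the chaperonin genes Hspd1 and Hspe1, which overlap by 112 bp, had a signal value of 53.7 and a domain of 4267 bp, and Ppat/Paics of purine synthesis had 52.9 and 4402 bp. The widest of the 7 was Col4a1/Col4a2, the ubiquitous pair of basement membrane collagens, with 42.3 and 10240 bp. All 7 had 1 peak over both TSSs in every list. Of all marked pairs with overlapping 5′ ends 96.0% had such a peak in the replicated list, so 7 of 7 is near that share. Cct8/Usp16 was in neither class.

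**Figure D2:**
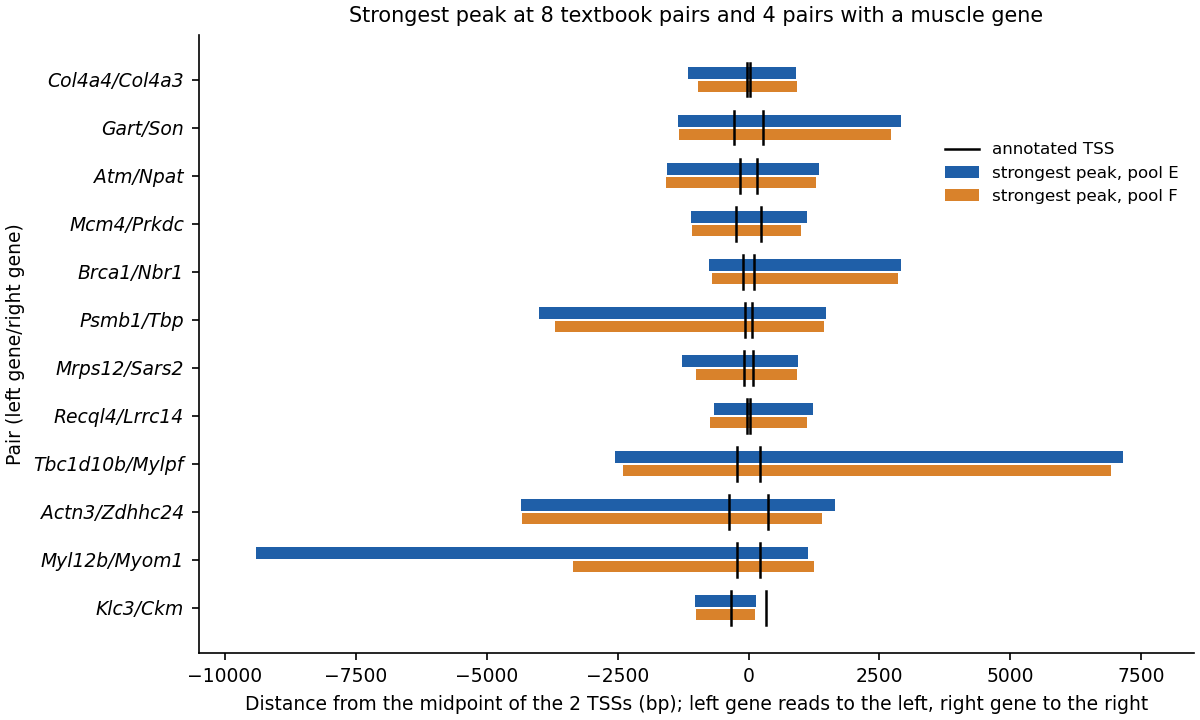
Extent of the strongest peak in pool E and in pool F, in bp from the midpoint of the 2 TSSs, at the 8 textbook pairs and the 4 pairs with a gene of the muscle list; black ticks are the annotated TSSs. In every textbook pair the peak covers both ticks in both pools, and in Klc3/Ckm it stops short of the Ckm tick.

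Divergent promoters had higher signal values and wider domains than single-gene promoters in both pools. The differences were smaller among promoters of the high CpG class. A pair's values were the highest signal value and widest domain near either of its 2 TSSs, a single gene's those near 1 TSS. The domain of most pairs also took in the stretch between the TSSs. Its median was 120 bp where the strongest peak covered both, and 112 bp in the high CpG class. The part of these 2 points in the differences was not tested. The median signal value of marked pairs was 51.3 (interquartile range 40.9 to 57.4), against 44.3 (28.8 to 54.2) for marked single-gene promoters. The difference was 7.92 in pool E (55.7 against 47.8) and 5.84 in pool F (47.8 against 41.9). Within the high CpG class the medians were 53.1 and 51.7, in the intermediate class 49.9 and 43.8, and in the low class 31.9 and 21.9. With 2 lists and no sample to permute, these differences carry no test, and they are read against the pools alone.

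The median domain at a pair was 2733 bp (2190 to 3618 bp), against 2252 bp (1609 to 3370 bp) at single-gene promoters. Pool E gave 2777 and 2307 bp, and pool F 2627 and 2174 bp. In the high CpG class the domains were 2896 and 2710 bp, a difference of 186 bp (pool E 196 bp, pool F 190.5 bp). It was 286 bp when peaks were not joined into domains. In the intermediate class they were 2516 and 2008 bp. Long domains were about as common in both groups: 18.8% of marked pairs and 17.8% of marked single-gene promoters had a domain over 4000 bp. For pairs with overlapping 5′ ends the medians were 2720 bp and a signal value of 50.2. Single-gene promoters with a long non-coding gene starting within 1000 bp upstream on the other strand had nearly the same median domain as pairs, 2724 bp, with a signal value of 49.9, and 25.8% of their domains were over 4000 bp. Within the high CpG class their domain was 3076 bp and their signal value 53.3, against 2896 bp and 53.1 for pairs. The domain was wider than that of pairs in both pools (3173 against 2959 bp in pool E, 2948 against 2801 bp in pool F). The signal value was not higher in both: 56.5 against 57.3 in pool E and 50.3 against 49.5 in pool F.

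Signal value and width were also set beside each other. Promoters were split at the quartiles of the single-gene signal values. In the lowest class (up to 28.8), 38 pairs had a median domain of 2124 bp and 2704 single-gene promoters 1293 bp. In the second class the medians were 2679 and 2274 bp, in the third 2656.5 and 2440.5 bp, and in the top class (above 54.2) 277 pairs had 2882 bp and 2695 single-gene promoters 2680 bp. The median was thus larger for pairs in each class, and 38.8% of the pairs lay in the top one.

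Over all pairs, the median reach was about equal on the left and on the right. These sides are set by strand, so alike medians do not show equal arms within a pair. Where 1 strongest peak covered both TSSs (681 pairs), it reached a median of 1188 bp into the left gene, which is on the minus strand, and 1213 bp into the right gene. Over both sides together the median reach was 1204 bp. At 9994 single-gene promoters with a peak over the TSS, it reached 1494 bp downstream into the gene and 634 bp upstream. A gene of a pair thus had 290 bp less of the peak in its body than a single gene, 308 bp less in pool E and 270 bp less in pool F. On the other side the peak went 570 bp further past the partner's TSS than a single gene's peak went upstream (pool E 568 bp, pool F 549 bp).

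The same order held in each CpG class. In the high class the reach was 1294 bp for pairs, and 1724 bp downstream and 788 bp upstream for single genes. In the intermediate class it was 1120.5, 1316 and 582 bp. In the low class it was 1095 bp over 15 pairs, against 1399 and 397 bp. The distance between the TSSs made little difference to the reach, with 1208.5 bp for pairs up to 100 bp apart and 1205 bp for pairs over 300 bp apart. In 91.9% of pairs the peak ran more than 500 bp into both genes, and in 65.1% of single-gene promoters it ran more than 500 bp to both sides. The longer arm of a pair was 1472 bp and the shorter 1014 bp in the median, and the longer and shorter arms at single genes were 1521 and 620 bp. The arms of a pair were thus closer to each other in length, the longer arms being alike and the shorter one longer at pairs.

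**Figure D3:**
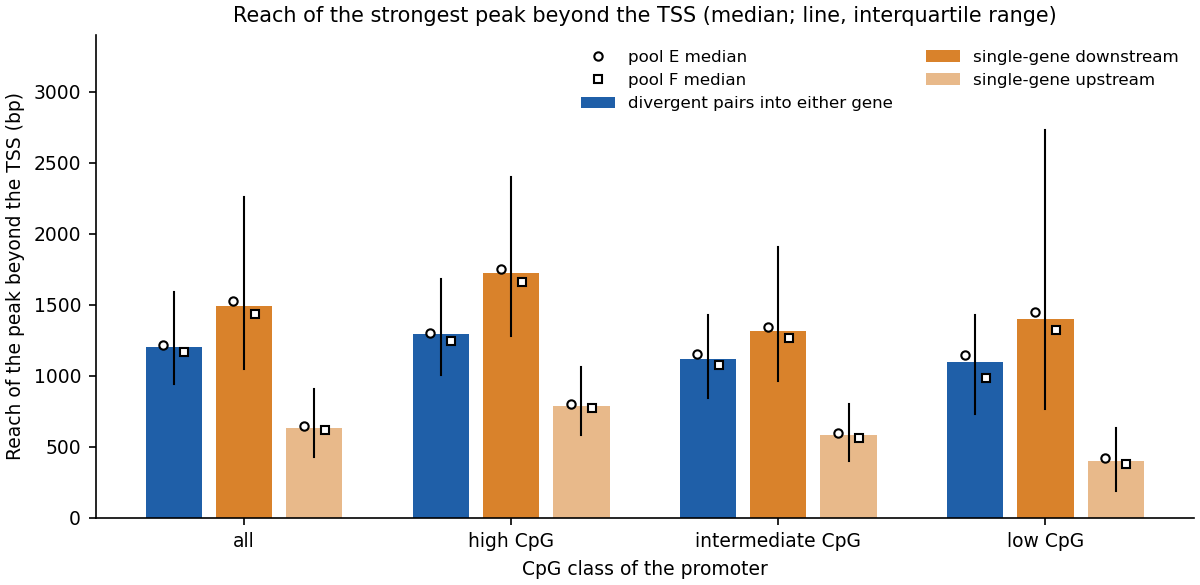
Median reach in bp of the strongest peak beyond the TSS, by CpG class, for divergent pairs into either gene and for single-gene promoters downstream and upstream; bars are the replicated list, lines its interquartile range, open circles and squares the medians of pools E and F. In every class the pair value lies below the single-gene downstream value and above the upstream value.

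**Figure D4:**
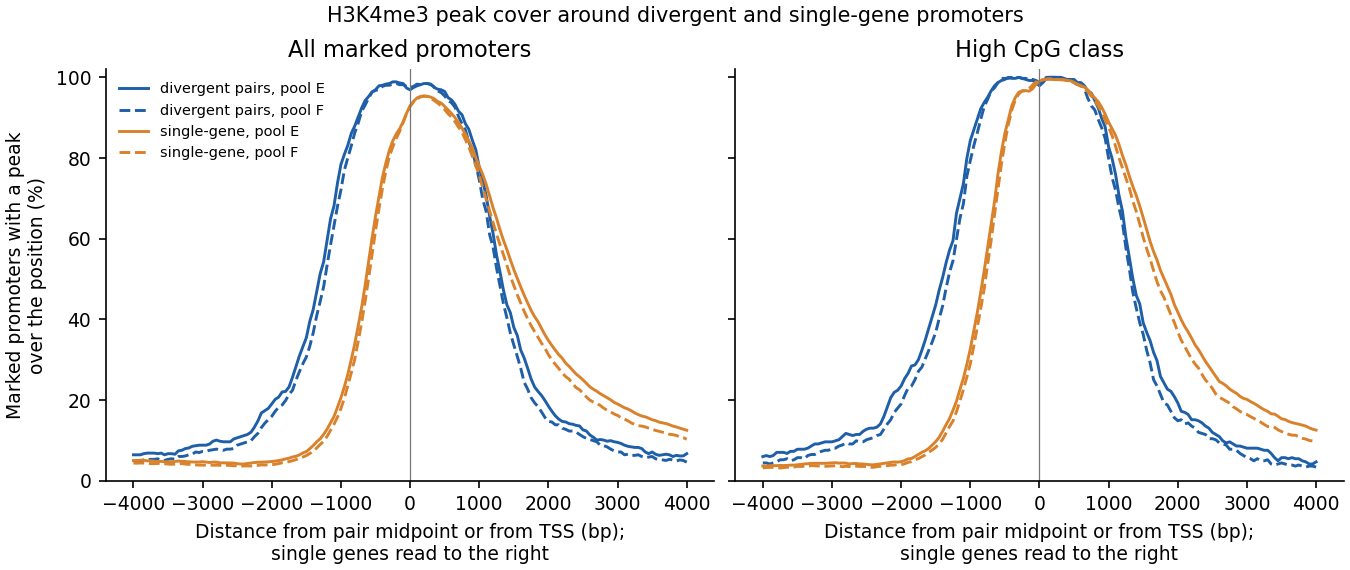
Percent of marked promoters with a peak over each position, in bp from the midpoint of a pair or from the TSS of a single gene read to the right, in pools E and F; left all promoters, right the high CpG class. As a class, pairs are covered about evenly on both sides, which are set by strand. Single genes are covered further to the right than to the left.

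Cover by position over all pairs was likewise alike on the left and right, without showing equal arms within a pair. At 1000 bp to the left and right of the midpoint 75.7% and 76.9% of marked pairs had a peak in the replicated list. At 1000 bp upstream and downstream of a single gene's TSS the shares were 19.5% and 77.3%. At 1500 bp pairs had 34.6% on the left and 36.7% on the right, and single genes 6.91% upstream and 50.9% downstream.

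The class most like the pairs was that of single genes facing a long non-coding gene. Of the single-gene promoters 642 had an annotated long non-coding gene that started within 1000 bp upstream on the other strand, and 563 of these (87.7%) were marked. Their median peak reached 1543.5 bp downstream and 934.5 bp upstream, so the upstream arm lay between the 634 bp of all single genes and the 1204 bp of coding pairs. Their downstream arm was longer than that of all single genes (1494 bp). In the high CpG class the upstream arm was 1015 bp, against 788 bp for all single genes of that class.

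Summits, the highest point of a peak, lay inside the genes. In the replicated list the summit fell on the left gene's side in 327 pairs, on the right gene's side in 367 and between the TSSs in 19 (2.66%), at a median of 220.5 bp from the nearer TSS. At single-gene promoters 90.9% of summits lay downstream, at a median of 256 bp. The summit lay in the same place (left, right or between) in both pools at 619 of 713 pairs (86.8%), and it moved from 1 gene to the other at 85 pairs, Atm/Npat among them. The longer arm was on the same side in both pools at 599 of 673 pairs (89.0%). The summit lay on the side of the longer arm in 70.4% of 662 pairs.

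The share of muscle genes in divergent pairs was close to that of all genes. Of 52 genes on a list of contractile and calcium-handling genes, 4 belonged to pairs (7.69%, against 6.96% of all coding genes), and all 4 pairs were marked. Mylpf, the fast regulatory myosin light chain gene, starts 422 bp from Tbc1d10b, a Rab GTPase regulator gene, on chromosome 7 (127208890 and 127208468). One peak covered both TSSs with a signal value of 58.8 (63.7 in pool E, 54.8 in pool F). It ran 6928 bp to the side of Mylpf, past the end of that gene of 5409 bp, and 2333 bp into Tbc1d10b in pool E, and 6714 and 2191 bp in pool F, so the longer arm was on the muscle gene's side. Actn3, the alpha-actinin of fast fibres, starts 759 bp from Zdhhc24, a palmitoyltransferase gene, on chromosome 19 (4877909 and 4878668). Their signal value was 57.7 (63.0 and 52.1), and the peak ran 3967 bp into Actn3 and 1026 bp into Zdhhc24. Of the 4 pairs these were the ones with a signal value above the median of all marked pairs, and their domains were 9478 and 9663 bp wide. At all 4 pairs, in each of the 3 lists, the summit of the strongest peak lay on the side of the muscle gene's partner. In the replicated list it lay 201 bp inside Tbc1d10b and 199 bp inside Zdhhc24, counted from their TSSs.

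For the other 2 muscle pairs, in the replicated list, the muscle gene had a higher signal value at another of its annotated TSSs. Ckm, the muscle creatine kinase gene, and Klc3, a kinesin light chain gene, have annotated 5′ ends 672 bp apart on chromosome 7. The strongest peak there, with a signal value of 38.2 (39.5 in pool E, 39.0 in pool F), covered the TSS of Klc3 and ended 232 bp before that of Ckm. A peak of 5.74 began 882 bp after the Ckm 5′ end. Another annotated Ckm TSS, 6249 bp further along at 19411025, had a peak of 53.1 in a domain of 13119 bp. Likewise Myom1, for the M-band protein myomesin, starts 425 bp from Myl12b, a regulatory light chain gene of non-muscle myosin, where the signal value was 28.4 (46.9 in pool E, 34.8 in pool F). Other Myom1 TSSs, the nearest 16888 bp downstream, had a peak of 40.2 in a domain of 11237 bp. At this pair the domain was 16762 bp wide, against 17205 bp for pool E and 11789 bp for pool F, and it lay mostly on the Myl12b side, 13927 bp from the Myl12b TSS.

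The highest signal values and the widest domains belonged to other pairs. The 5 highest were Dido1/Gid8 (63.5), Rbmxl1/Slc10a7 (63.4), Mzt1/Bora (63.3), Setd3/Ccnk (63.2) and Pafah1b2/Sik3 (62.8), all of the high CpG class. Mzt1 and Bora are both genes of the mitotic spindle machinery, and Ccnk encodes a cyclin of transcription. The widest domain was that of Smim7/Tmem38a, with 20750 bp in the replicated list and 20712 bp in pool E, but 10577 bp in pool F. Tmem38a encodes the TRIC-A potassium channel of the muscle sarcoplasmic reticulum, and the domain ran 18153 bp to its side (18163 bp in pool E, 7912 bp in pool F). In the replicated list and in pool E the domain went past the end of that gene of 15228 bp. The strongest peak within the domain reached 4689 bp to that side (5245 bp in pool E, 4662 bp in pool F). The next widest domains were those of Myl12b/Myom1, Kctd10/Ube3b (12462 bp, and 12482 and 12392 bp in pools E and F), Tshz1/Zadh2 (11007 bp) and Tmem135/Fzd4 (10111 bp). At Tmem135/Fzd4 1 peak ran 8537 bp on the side of Fzd4, a Wnt receptor gene of blood vessels, and 1440 bp into Tmem135, with 8533 and 1492 bp in pool E and 8565 and 1430 bp in pool F. The reach was alike in both pools, while the signal value was 59.3 in pool E and 33.4 in pool F.

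Genes of DNA repair and replication were often members. Their list was drawn with earlier results of these data known, and it took in Npat, the partner of Atm. The part of this choice in the share was not tested. Of 100 genes on the list 33 were in pairs (33.0%), against 6.96% of all coding genes. All of their 33 pairs were marked, 32 with 1 peak over both TSSs. These counts, and those of the lists that follow, stand beside 97.1% of all pairs marked and 95.9% of marked pairs with 1 such peak. They are near these shares, except that only 11 of 14 replication-dependent histone pairs were marked. The signal values of the DNA repair and replication pairs ran from 32.0 to 60.8. Their median was 49.3, below the 51.3 of all marked pairs, and their median domain was 2397 bp. The highest values were those of Wrn/Purg (60.8; 65.4 in pool E and 53.1 in pool F), with the Werner helicase gene, and Prpf38a/Orc1 (59.5), with an origin recognition gene. Mitochondrial ribosome genes had 18 of 78 in pairs (23.1%) and respiratory chain and ATP synthase genes 22 of 95 (23.2%). All 18 and all 22 pairs had 1 peak over both TSSs, with median signal values of 50.3 and 49.5 and median domains of 2700.5 and 3119 bp. Examples were Zfp661/Mrps5 (60.9), Mrpl40/Hira (59.6), Cebpz/Ndufaf7 (61.6) and Ndufa8/Morn5 (60.1). At Ndufa8/Morn5 the peak ran 2237 bp into Ndufa8, a subunit of complex I, and 347 bp into Morn5.

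Pairs held 5 of 37 aminoacyl-tRNA synthetase genes (13.5%), 12 of 72 chaperone genes (16.7%), 7 of 49 proteasome genes (14.3%) and 2 of 24 genes of nucleotide synthesis (8.33%), and all of these 5, 11, 7 and 2 pairs had 1 peak over both TSSs. The highest were Kars/Terf2ip (61.6) and Orc3/Rars2 (54.0), Tecr/Dnajb1 (54.3) and Tbccd1/Dnajb11 (46.5), Ftsj3/Psmc5 (59.4) and Psma7/Ss18l1 (54.7), and Mthfd2/Mob1a (54.1). Ftsj3/Psmc5 had 40.1 in pool E and 56.7 in pool F. Zinc finger genes had 21 of 388 in pairs (5.41%), and 18 of their 19 pairs were marked, with Zfp142/Bcs1l highest (61.1). The collagen list, drawn by gene name, took in Polk/Col4a3bp (58.3), although Col4a3bp encodes a ceramide carrier. Of 1457 olfactory and vomeronasal receptor genes 1 was in a pair, Nt5c3/Vmn1r4 (57.6).

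Histone genes had the highest share in pairs of all lists. Replication-dependent histone genes had 27 of 67 in pairs (40.3%), mostly an H2A gene facing an H2B gene, in 14 pairs of which 11 were marked. That share was lower than the 97.1% of all pairs. The median signal value of the marked histone pairs was 30.3, lower than that of any other list above. The highest was 50.7 at Hist2h2ac/Hist2h2be, which shares its peak with the neighbouring pair Bola1/Hist2h2ab, and Hist1h2ac/Hist1h2bc had 43.5. The unmarked ones were Hist1h2bq/Hist1h2ao, Hist1h2ap/Hist1h2br and Hist1h2ba/Hist1h2aa, all of the high CpG class, and Hist1h2ba is known as a testis histone gene. Histone genes are near copies of each other, and how the authors placed reads that match several copies is not given. Of the words of 50 bp in the stretch from 500 bp left to 500 bp right of both TSSs, 97.4% at Hist1h2bq/Hist1h2ao and 100% at Hist1h2ap/Hist1h2br also occurred at another histone pair. At the 10 marked pairs of 2 histone genes the share ran from 3.02% to 53.7%, and at Hist1h2ba/Hist1h2aa it was 11.0%. The part of this sequence sharing in the missing peaks was not tested.

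The 21 unmarked pairs were unmarked in both pools. Of these 16 belonged to the low CpG class, 2 to the intermediate and 3, the histone pairs above, to the high class. The 10 with the shortest distances were Best1/Rab3il1 (36 bp), Dgcr2/Tssk2 (75 bp), Il11/Tmem190 (78 bp), Ccnt1/4930415O20Rik (81 bp), Patl2/Terb2 (83 bp), Zfp558/Mbd3l1 (91 bp), Fam217a/4933417A18Rik (99 bp), Nmur1/Tex44 (101 bp), Lypd4/Dmrtc2 (116 bp) and Bhmt2/Dmgdh (131 bp). As background, Tssk2 is a testis kinase gene, Terb2 acts in meiotic telomere attachment, and Bhmt2 and Dmgdh act in methyl group metabolism.

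At 10 of the 21 a member gene was marked at another of its annotated TSSs. Among them Aspa/Spata22 and Aspa/Gm49340 have the same TSS positions and rest on the same Aspa start (10.4 at 2789 bp). The share of all genes marked at another TSS was not computed, so the 10 stand without a background. Dgcr2 had a peak of 55.8 at a TSS 6869 bp from its 5′ end, Ccnt1, a cyclin of transcription elongation, one of 44.3 at 3243 bp, and Trim28, a corepressor gene, one of 59.8 at 25038 bp. Smyd1, a methyltransferase gene of striated muscle whose 5′ end lies 555 bp from that of the T-cell gene Cd8b1, had a peak of 38.8 at a TSS 59952 bp away. In Best1/Rab3il1 both genes had a marked TSS elsewhere, with signal values of 6.92 for Best1 and 34.8 for Rab3il1, and in the other pairs 1 gene had. For these pairs the annotated head-to-head ends and the marked starts were different places.

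The lowest signal values among marked pairs were those of Pecam1/Milr1 (3.93), Kirrel2/Nphs1 (6.21), Tssk3/Fam229a (8.59), Smc1b/Ribc2 (9.07) and Nr2e1/Ostm1 (9.34), singled out after their values were seen. Pecam1 is an endothelial gene, Nphs1 a podocyte gene, and Tssk3 and Smc1b are known from the germ line.

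Some pairs with high signal values had separate peaks. Setd3/Ccnk, 265 bp apart, had a peak of 44.4 that ended 34 bp past the Setd3 TSS and a peak of 63.2 that began 106 bp before the Ccnk TSS. The same 2 peaks were listed in pool E (46.5 and 60.1) and in pool F (42.9 and 58.0). Rnf5/Agpat1, 572 bp apart, likewise had 45.0 on the side of the ubiquitin ligase gene Rnf5 and 61.3 on the side of Agpat1, of phospholipid synthesis, with 55.3 and 66.7 in pool E and 43.3 and 57.1 in pool F. The stronger peak lay on the same side in both pools at each of these pairs. Tpcn1/Iqcd (61.1 and 11.5) and Ccdc146/Fam185a (6.10 and 59.4) also had a peak over each TSS. At Tada2b/Ccdc96 the stronger peak (61.8) ended 112 bp short of the Tada2b TSS, inside that gene, and the weaker (28.9) covered the TSS of Ccdc96.

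The pools ranked the pairs alike in width and less so in signal value. Over 713 pairs Spearman's rho between pools E and F was 0.957 for domain width and 0.793 for signal value; the pairs are not independent replicates and the labels name 1 control experiment for all libraries. Domains were wider in pool E at 568 pairs and wider in pool F at 144, with a median difference of 122 bp, and they differed by more than 1000 bp at 36 pairs. The signal value was higher in pool E at 645 pairs, which cannot be told apart from a difference in scale or depth between the lists. In 20 cases 1 peak was the strongest of 2 pairs at once, so 713 marked pairs rested on 693 peaks.

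**Figure D5:**
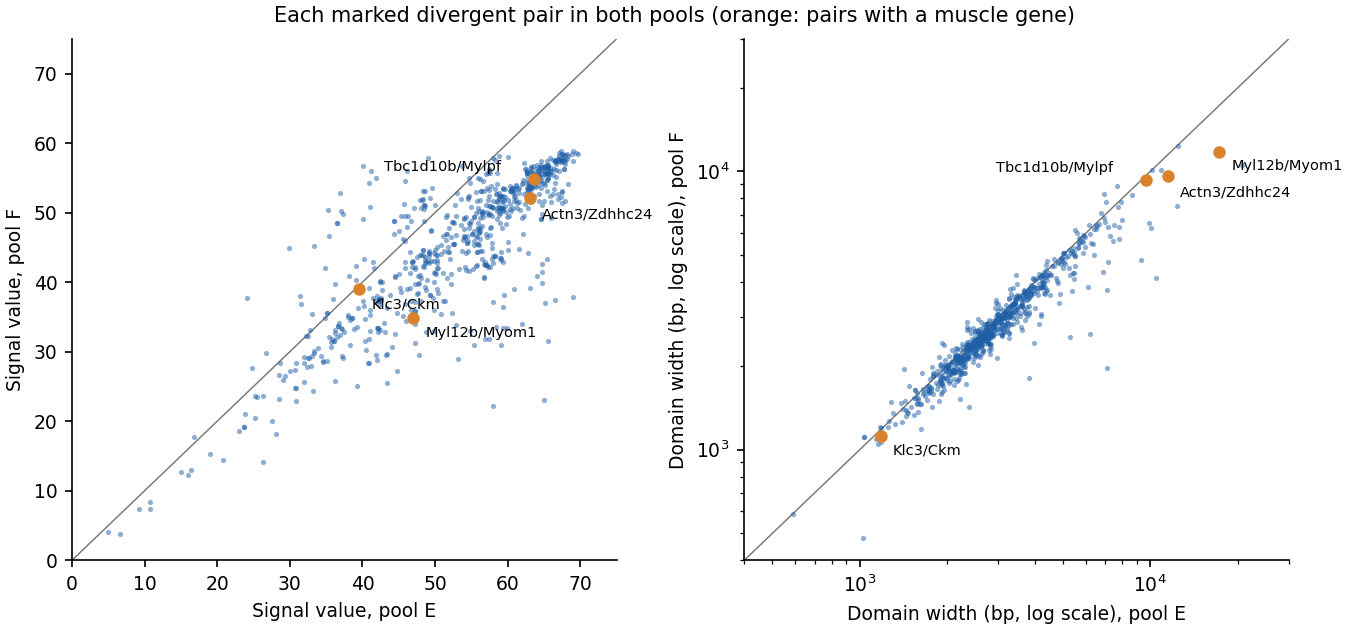
Signal value (left, authors' scale) and domain width in bp (right, log scale) of each of the 713 marked pairs, pool E on the horizontal and pool F on the vertical axis; the line marks equal values and the 4 pairs with a muscle gene are orange. Widths lie close to the line, and most signal values lie below it, higher in pool E.

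Promoter letters were searched for fixed words on both strands, from 250 bp before to 50 bp after each TSS, and the windows of 2 paired genes often overlap. CCGGAAG, an ETS word, stood in 27.6% of 1448 paired genes, in 9.14% of single-gene promoters and in 11.0% of all coding genes. In the high CpG class the shares were 29.7% and 15.7%. CCAAT, the NF-Y box, stood in 43.6% of paired and 38.5% of single genes (42.2% and 35.1% in the high class). GGGCGG, the GC box of SP1, stood in 68.9% and 41.1%, but in the high class in 74.9% and 79.3%. AAGATGGCG, a YY1 word, stood in 5.46% and 1.31%, CTCGCGAGA in 3.25% and 0.687%, GCGCATGCG of NRF1 in 4.90% and 1.92%, and TGACGTCA of CREB in 4.63% and 2.23%. In the high class these contrasts were smaller: 5.65% and 2.78% for AAGATGGCG, 3.42% and 2.18% for CTCGCGAGA, 5.39% and 4.66% for GCGCATGCG, and 5.39% and 4.01% for TGACGTCA. TATAAA stood in 4.14% of paired genes and 13.8% of single genes, and in the high class in 3.68% and 4.91%. A word is a match of letters and not a bound site. The median GC content of the 1000 bp windows was 60.3% at pairs and 54.2% at single genes, and its part in these shares was not tested.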

How the data were processed

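H3K4me3 ChIP-seq peak lists of 2 pools of mouse gastrocnemius were used. Per the labels and the text deposited with each sample, the authors called peaks on mm10 from filtered alignments and a further input without a description; the sources used here do not give aligner, caller or settings. The lists of pools E and F and the pooled list hold pseudoreplicated peaks, and the replicated list holds replicated peaks; 96.8% of its peaks stand with the same ends and signal value in the pooled list. In the deposited lists each peak carries the authors' signal value, of unstated scale, and a −log10 q-value. Depth is unknown, so no error of a single value can be given.

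From these, peaks, domains, reach and summits at gene 5′ ends of GENCODE M21 were computed with Python 3 scripts (pandas 2.3.3, numpy 2.4.6, scipy 1.17.1), tested on simulated peaks. With 1 condition and 2 pools no test was made; regions are not replicates. The members and gene lists were chosen with earlier results of these data known. Named pairs were textbook pairs, the 5 with the highest signal value and the 5 with the widest domain. The 10 unmarked pairs with the shortest distance, every pair with a muscle gene and the 2 highest of each other list were also named. Of pairs with 2 or more separate peaks, 5 were named by the highest peak within 1000 bp of the weaker TSS. At these 5 the stronger peak lay within 1000 bp of both TSSs, so they were in effect ranked by it. No pair was marked in 1 pool only. No marked pair lacked a peak within 1000 bp of 1 of its TSSs, which the short distances between TSSs make likely from the start. Sequences were read from GRCm38.p6. Alternatives for the TSS, distance, window, threshold, list, joining and comparison promoters are given below; 1 pair per locus, genes with 1 annotated start region, and all alternatives for the reach results were chosen after seeing the data.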

Additional observations from a re-analysis of the deposited data

How the results depend on the processing

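Over 8 results and 15 alternatives no difference changed its direction. Of the values under an alternative, 61 moved by less than the spread between the pools (for shares, than their counting interval; for counts, 1.5 times) and 33 moved by more. That spread was taken from the lists of the single pools, which are themselves 2 of the alternatives. Admitting overlapping 5′ ends gave 1170 pairs. Genes with 1 annotated start region, chosen after seeing the data, gave 93.7% of pairs marked, a signal difference between pairs and single-gene promoters of 8.92 and a domain difference of 430 bp. TSSs at most 500 bp apart gave 97.2% under 1 peak. The domain difference of 481 bp was 505.5 bp with any annotated TSS, 454 bp with TSSs at most 500 bp apart, 422 bp with a peak over the TSS itself, 497.5 bp without joining peaks, 443 bp with peaks joined over 2500 bp, 535 bp against promoters with no other TSS nearby and 417 bp against all other coding promoters. In the high CpG class the difference of 186 bp was, in the same order, 199.5, 171, 184, 286, 137, 254 and 161 bp. It was 206 bp with overlapping pairs, 178 bp with a window of 2500 bp, 197 bp at a −log10 q-value of at least 2, 202 bp in the pooled list, 205 bp with 1 pair per locus (chosen after seeing the data) and 211 bp with 1 start region. The alternatives for the reach were all chosen after seeing the data: the further reach past the partner's TSS, 570 bp, was 589 bp with any TSS, 543.5 bp with overlapping pairs, 592 bp against promoters with no other TSS nearby, 541 bp against all others and 460 bp with 1 start region. Leaving out a pool leaves the list of the other one. That gave 97.1% of pairs marked in each, 95.2 to 96.1% under 1 peak, signal differences of 5.84 to 7.92, domain differences of 453 to 470 bp (190.5 to 196 bp in the high CpG class), and reach differences of -308 to -270 bp into the gene and 549 to 568 bp past the partner. The cause of these shifts was not tested. Of the values of single named pairs 209 stayed within the spread between the pools and 49 moved by more. The alternatives here were the pooled list and the lists of the single pools. The pooled list holds 96.8% of the replicated peaks unchanged, and the spread was taken from the same 2 pool lists. These counts therefore do not measure how firm the values are. They also set signal values of different lists side by side, whose scales may differ. No paired analysis was possible because there was 1 condition and no test. Depth is not known from the lists, so no limit of detection is given for the unmarked pairs.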
